A study of Drosophila melanogaster with 6 samples.

Results

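Oxidative phosphorylation is carried out by 5 protein complexes of the inner mitochondrial membrane, and the genes of their subunits lie in the nucleus and in the mitochondrion. The genes described here were chosen by FlyBase symbol: those that start with ND-, Sdh, UQCR-, COX4 to COX8 or ATPsyn, and the protein-coding genes that start with mt:. This gave 101 genes of the 17560 in the count files, 88 in the nucleus and 13 in the mitochondrion. They stand in 98 of 14537 rows of gene counts, because genes that overlap on the genome were counted together in 1 row. Of the 88 nuclear rows, 53 hold a single gene and 35 also hold neighbors. Of the 10 mitochondrial rows, 7 hold a single gene. The other 3 are mt:ND2 with a pair of tRNA genes, mt:ND4L with mt:ND4, and mt:ATPase6 with mt:ATPase8 and mt:CoIII. Among the 88 nuclear genes, 63 are subunits, 1 is an assembly factor (Sdhaf3), and 24 carry the symbol of a subunit with an added L and are called like genes here.

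RNA was taken from dissected eyes of male Drosophila melanogaster at day 40 (3 libraries) and day 10 (3 libraries) after eclosion. Flies of both ages were w and ry[506] and carried UAS-GFP-Msp300KASH at attP2 together with rh1-GAL4, so that all groups express a GFP-tagged nuclear envelope protein from a driver active in the outer photoreceptors. All flies lived on standard food at 25 °C in 12:12 light:dark cycles, and total RNA was depleted of ribosomal RNA before sequencing. The 3 libraries of an age are biological replicates, and the number of eyes in each is not given in the sources used here.

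As background, complex I (NADH dehydrogenase) and complex II (succinate dehydrogenase) pass electrons to ubiquinone, complex III passes them to cytochrome c, and complex IV (cytochrome c oxidase) passes them to oxygen. Complexes I, III and IV pump protons as they do so, and complex V (ATP synthase) lets the protons flow back to make ATP. Complex II is built from nuclear genes alone, whereas the other complexes join nuclear subunits to a core from mitochondrial genes. Fly photoreceptors are rich in mitochondria and spend much ATP on restoring ion gradients after light.

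The gene rows summed to between 8476220 and 15029770 counts per library. Values per library are given below as normalized counts, that is, counts divided by the size factor of the library, in the order of replicates 1, 2 and 3. Libraries of the same age differed by more than counting error in every pair (chi-square per degree of freedom of 21.5 to 59.9). All 9 photoreceptor markers were detected in every library, and they summed to between 854126 and 1037738 normalized counts at day 40 and between 731285 and 1310110 at day 10. No batch is given in the labels.

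Nuclear and mitochondrial genes lay to opposite sides of 0 in the comparison of day 40 with day 10, but no member passed the test. The median log2 change was 0.65 over the 10 mitochondrial rows and -0.24 over the 63 nuclear subunit rows, beside -0.01 over all 9255 rows tested. Of the mitochondrial rows, 9 had a log2 change above 0 and 1 below. Of the nuclear subunit rows, 8 lay above 0 and 55 below, which is 87.3% below 0 beside 51.1% of all rows tested. These medians and counts describe the lists and carry no test.

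Of the 98 rows, 84 had enough counts to be tested, and the other 14 were all like genes. None was called in either direction at an adjusted p under 0.1 in edgeR's quasi-likelihood test with Benjamini-Hochberg adjustment, beside 4.12% of all rows tested (183 lower and 198 higher at day 40). The lowest adjusted p of any member was 0.135. At an unadjusted p under 0.05, 19 members were lower and 1 was higher, beside 7.3% of all rows tested lower and 7.01% higher. DESeq2 called ATPsynC and ATPsynD lower and mt:ND1 higher, beside 601 of 14001 rows called in that fit. In eyes taken whole, fewer cells of a type and less RNA per cell cannot be told apart.

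**Figure D1:**
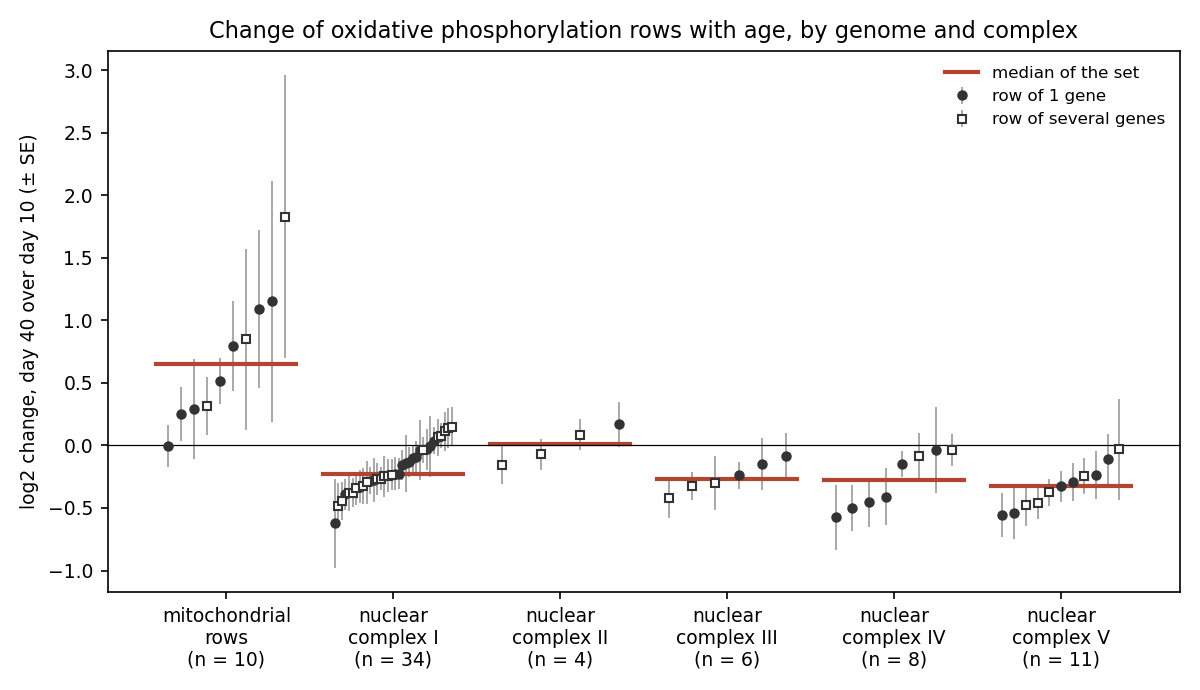
Log2 change at day 40 over day 10 from edgeR (y axis, point with its SE) of each mitochondrial row and each nuclear subunit row, grouped along the x axis by genome and complex. Filled circles are rows of 1 gene, open squares rows of several genes and red lines medians: the mitochondrial rows reach 1.83 with wide errors, and all nuclear rows of complexes III, IV and V lie below 0.

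Levels of different genes were compared per length, as counts per kilobase of exonic sequence, scaled to a common total of gene counts (CPM per kilobase), which could be done only for rows of 1 gene. mt:CoI, the catalytic core of complex IV, had the highest per-length level, 4990 ± 280 at day 40 and 4232 ± 1235 at day 10 (SD, n = 3 each). mt:CoII followed with 3230 ± 544 at day 40 and 3249 ± 216 at day 10, and mt:ND6 was lowest of the 7 mitochondrial rows with 4.96 ± 6.03 at day 40 and 2.27 ± 1.71 at day 10 (SD, n = 3 each). The mitochondrial genes thus spread over a far wider range than the nuclear subunits, whose 32 rows lay between 21.1 (ND-13B) and 473 (COX7B) as means over the 6 libraries.

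Among nuclear subunits the median per-length level was 52.2 for the 16 rows of complex I, 127 for the 3 rows of complex III, 216 for the 6 rows of complex IV and 162 for the 6 rows of complex V, and the single row of complex II (SdhC) had 44.1. The subunits of complexes IV and V therefore stood above those of complex I on this scale, as a description with no test. Within complex I the accessory subunit ND-B17.2 was highest, with 126 ± 12.0 at day 40 and 124 ± 7.42 at day 10. ND-ACP, the mitochondrial acyl carrier protein, came next with 73.4 ± 9.49 at day 40 and 96.7 ± 3.73 at day 10, and ND-PDSW, also an accessory subunit, had 76.6 ± 1.97 at day 40 and 92.7 ± 19.0 at day 10 (SD, n = 3 each). The intervals of ND-ACP and ND-PDSW overlapped at each age.

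**Figure D2:**
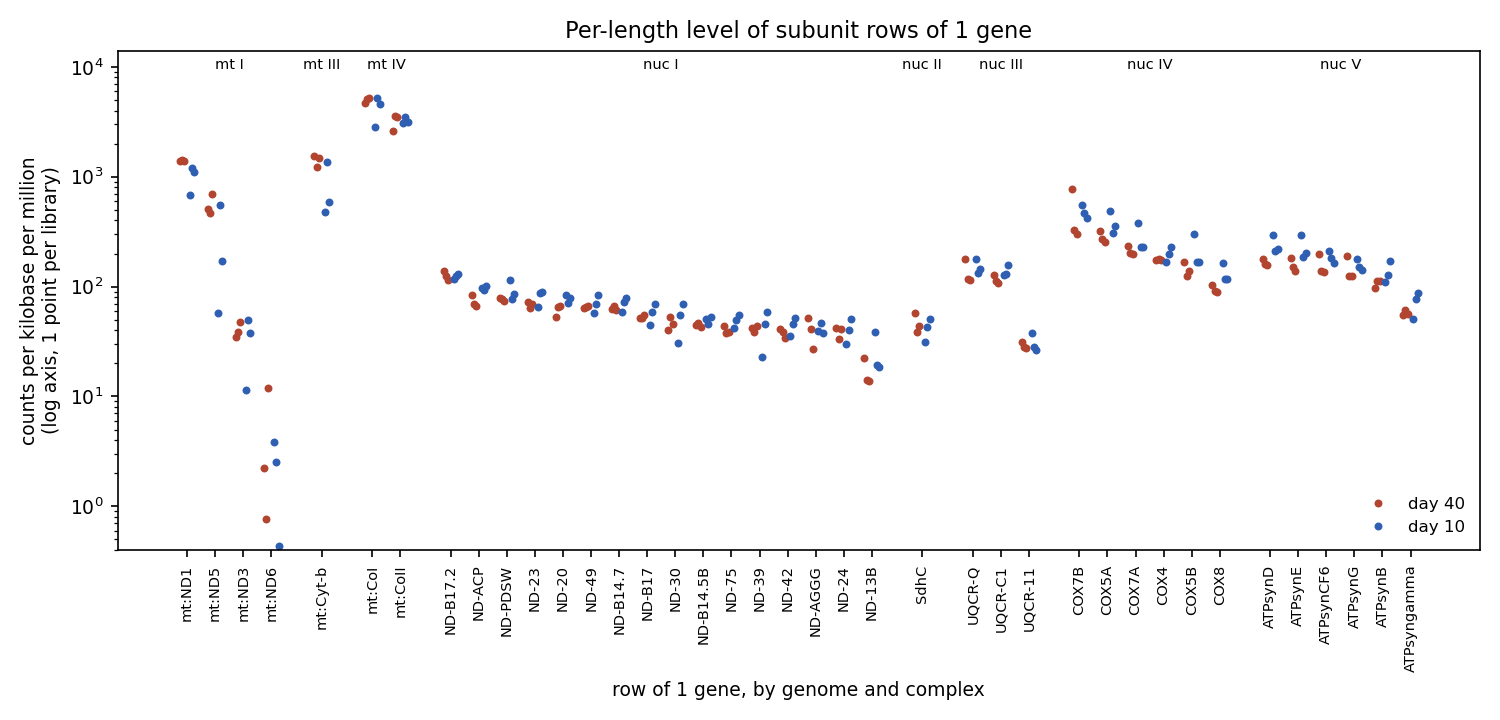
Per-length level (y axis, CPM per kilobase, log axis) of each subunit row of 1 gene, along the x axis by genome (mt, mitochondrial; nuc, nuclear), complex and level, with 1 point per library, day 40 in red left of day 10 in blue. Nuclear subunits average between 21.1 and 473, while mitochondrial rows run from mt:CoI at 4990 down to mt:ND6 at 4.96 at day 40.

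The mitochondrial genes of complex I encode the membrane arm that moves protons. mt:ND1, which lies beside the ubiquinone site (mitochondrion, 11720 to 12658, build BDGP6, 1 exonic part), had 14607, 15083 and 13949 normalized counts at day 40, against 7577, 12887 and 10097 at day 10. All day 40 libraries were above all day 10 libraries, a pattern that 10.3% of all rows tested showed and no other member did. It had a log2 change of 0.51 ± 0.18 (SE, adjusted p = 0.236 in edgeR), and an adjusted p of 0.0701 in DESeq2.

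The rows of mt:ND2, of mt:ND4L with mt:ND4 and of mt:ND5 were more even at day 40 than at day 10. mt:ND5 (6402 to 8124) had 9979, 9060 and 12810 normalized counts at day 40, against 1167, 11038 and 2841 at day 10. The row of mt:ND4L and mt:ND4 had 9115, 10023 and 11682 at day 40, against 582, 11018 and 5574 at day 10, and the row of mt:ND2 had 885, 681 and 2044 at day 40, against 34.4, 974 and 12.0 at day 10. In each, day 10 replicate 1 lay far below day 10 replicate 2, which was within the day 40 range, and in mt:ND2 and mt:ND5 day 10 replicate 3 was low as well. The highest library of an age exceeded the lowest 3.00-fold at day 40 and 81.5-fold at day 10 for mt:ND2, 1.28-fold and 18.9-fold for mt:ND4L with mt:ND4, and 1.41-fold and 9.46-fold for mt:ND5. Their log2 changes were 1.83 ± 1.13, 0.85 ± 0.72 and 1.09 ± 0.63 (SE), with adjusted p of 0.535, 0.679 and 0.498 in edgeR.

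mt:ND3 and mt:ND6 were the scarcest mitochondrial genes. mt:ND3 (5608 to 5961) had 139, 153 and 180 normalized counts at day 40, against 47.6, 201 and 131 at day 10, and a log2 change of 0.29 ± 0.40 (SE, adjusted p = 0.821 in edgeR). mt:ND6 (9970 to 10494) had 13.3, 4.48 and 66.8 at day 40, against 23.8, 15.4 and 2.24 at day 10, and a log2 change of 1.15 ± 0.96 (SE, adjusted p = 0.673 in edgeR). The ages overlapped in both rows, and for mt:ND6 the libraries of 1 age differed by over 10-fold at either age.

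Complexes III, IV and V each take part of their core from the mitochondrion. mt:Cyt-b, the cytochrome b of complex III (10498 to 11634), had 19909, 15478 and 17933 normalized counts at day 40, against 6350, 17966 and 6521 at day 10, and a log2 change of 0.80 ± 0.36 (SE, adjusted p = 0.358 in edgeR). Day 10 replicate 2 lay inside the day 40 range and the other day 10 libraries below it. mt:CoI (1474 to 3009) had 81032, 88614 and 85020 at day 40, against 51721, 92477 and 69288 at day 10, and a log2 change of 0.25 ± 0.22 (SE, adjusted p = 0.681 in edgeR). The row of mt:ATPase6, mt:ATPase8 and mt:CoIII, which joins subunits of complexes V and IV, had 74019, 76816 and 79405 at day 40, against 42690, 82886 and 59347 at day 10, and a log2 change of 0.32 ± 0.23 (SE, adjusted p = 0.614 in edgeR). In both of these rows day 10 replicate 2 was above every day 40 library, and the other day 10 libraries were below them. mt:CoII, which takes electrons from cytochrome c (3083 to 3767), was the 1 mitochondrial row with a log2 change below 0, with 20151, 27468 and 25811 at day 40, against 25183, 27636 and 20961 at day 10, and a log2 change of -0.01 ± 0.17 (SE, adjusted p = 0.992 in edgeR).

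The size of the mitochondrial difference changed with single libraries of either age. Without day 10 replicate 2, edgeR called mt:ND2, mt:Cyt-b and mt:ND5 higher at day 40, with log2 changes of 5.82 ± 0.68, 1.44 ± 0.17 and 2.38 ± 0.38 (SE) and adjusted p of 0.00837, 0.00885 and 0.0267. The library left out was the highest of day 10 in each of them, and that fit called 377 of 9447 rows in either direction. The median over the mitochondrial rows moved to 1.02 in that fit, to 0.33 in the fit that left out day 10 replicate 1, and to 0.41 in the fit that left out day 40 replicate 3. The log2 change of mt:ND3 was below 0 without day 10 replicate 1, that of mt:ND6 without day 40 replicate 3, and that of mt:CoII was above 0 without day 40 replicate 1, day 10 replicate 1 or day 10 replicate 2.

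Ribosomal RNAs of the mitochondrion, which are outside the rule, spread among the same libraries. The row of mt:lrRNA had 13643, 10567 and 21207 normalized counts at day 40, against 7813, 36054 and 11243 at day 10, and mt:srRNA had 1704, 1685 and 5341 at day 40, against 1545, 7750 and 339 at day 10. Day 10 replicate 2 was the highest library in both rows, and in mt:srRNA day 10 replicate 3 was the lowest. The part of ribosomal RNA depletion in the mitochondrial values was not tested.

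**Figure D3:**
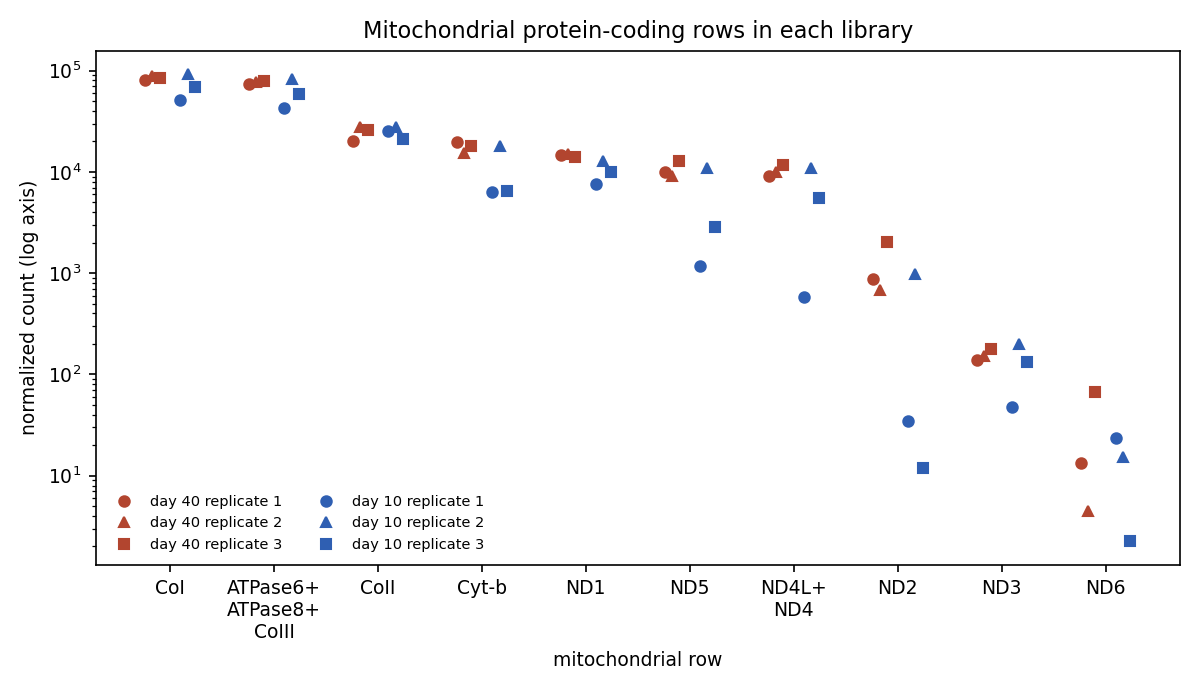
Normalized count (y axis, log axis) of the 10 mitochondrial protein-coding rows, ordered along the x axis by level, with 1 point per library, day 40 in red left of day 10 in blue and the symbol giving the replicate. Day 10 libraries spread widely in mt:ND2 (974 down to 12.0), mt:ND4L with mt:ND4 (11018 down to 582) and mt:ND5 (11038 down to 1167), where day 40 libraries lie closer together than those of day 10.

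Complex I has 34 nuclear subunit rows, 28 with a log2 change below 0 and 6 above, and a median of -0.23. In 9 of them all day 40 libraries lay below all day 10 libraries. That pattern was found in 9.92% of all rows tested and in 16 of the 63 nuclear subunit rows, while the reverse was found in none of the 63. The catalytic core of the complex holds the flavin and the iron-sulfur clusters that carry electrons to ubiquinone. ND-75, its largest iron-sulfur subunit (X, 8248651 to 8251687), had 1309, 1109 and 1079 normalized counts at day 40, against 1314, 1510 and 1408 at day 10, and a log2 change of -0.28 ± 0.11 (SE, adjusted p = 0.278 in edgeR). ND-20, which holds the last cluster before ubiquinone (X, 15985473 to 15986808), had 799, 977 and 947 at day 40, against 1317, 1087 and 1025 at day 10, and a log2 change of -0.33 ± 0.13 (SE, adjusted p = 0.288 in edgeR). The ages did not overlap in either row, though in ND-75 day 40 replicate 1 and day 10 replicate 1 were nearly equal.

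The other core rows of complex I overlapped between the ages. ND-23, an iron-sulfur subunit (3R, 15836048 to 15837117), had 669, 592 and 604 normalized counts at day 40, against 634, 827 and 711 at day 10, and a log2 change of -0.22 ± 0.12 (SE, adjusted p = 0.478 in edgeR). ND-49, which helps to form the ubiquinone site (4, 568296 to 571554), had 1149, 1157 and 1131 at day 40, against 1088, 1285 and 1300 at day 10, and a log2 change of -0.10 ± 0.11 (SE, adjusted p = 0.758 in edgeR). ND-51, the flavin-binding subunit, was counted with CG34180 and had 1327, 1423 and 1440 at day 40, against 1241, 1405 and 1319 at day 10, and a log2 change of 0.08 ± 0.10 (SE, adjusted p = 0.811 in edgeR). The ages overlapped in these 3 rows. ND-30 (3L, 3158485 to 3159578) had 443, 581 and 476 at day 40, against 356, 626 and 663 at day 10, and ND-24 (X, 17632089 to 17633509) had 505, 396 and 470 at day 40, against 377, 493 and 524 at day 10. In both, day 10 replicate 1 was the lowest library, and the adjusted p were 0.853 and 0.961 in edgeR.

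Accessory subunits stabilize complex I around this core. ND-13B (3L, 10693184 to 10694108) had the lowest log2 change of the nuclear subunits, with 151, 94.0 and 87.9 normalized counts at day 40, against 272, 134 and 108 at day 10, and a log2 change of -0.62 ± 0.35 (SE, adjusted p = 0.488 in edgeR). ND-B14, counted with CG12942, had 367, 353 and 353 at day 40, against 654, 421 and 426 at day 10, and a log2 change of -0.48 ± 0.18 (SE, adjusted p = 0.254 in edgeR). Day 10 replicate 1 was the highest library in both rows, and the ages overlapped in ND-13B but not in ND-B14. ND-ACP (3L, 1329949 to 1331631) had 801, 658 and 599 at day 40, against 958, 905 and 825 at day 10, and a log2 change of -0.39 ± 0.13 (SE, adjusted p = 0.180 in edgeR). ND-B16.6, the counterpart of mammalian GRIM-19, was counted with CG3847 and had 1083, 1034 and 984 at day 40, against 1544, 1315 and 1164 at day 10, and a log2 change of -0.38 ± 0.12 (SE, adjusted p = 0.166 in edgeR). These rows did not overlap between the ages.

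At the other end of complex I, ND-B14.5A shared its row with 3 Cyp4 genes and a pair of antisense RNAs and had 1445, 1276 and 1163 normalized counts at day 40, against 920, 1426 and 1140 at day 10, and a log2 change of 0.15 ± 0.16 (SE, adjusted p = 0.750 in edgeR). The row of ND-SGDH and Atg12 had 1060, 1024 and 968 at day 40, against 691, 1096 and 974 at day 10, and a log2 change of 0.14 ± 0.16 (SE, adjusted p = 0.777 in edgeR). Day 10 replicate 1 was the lowest library in both rows, and reads of the member and of its neighbors cannot be told apart there. ND-B17.2 (2L, 2579201 to 2580172) had 1153, 1026 and 907 at day 40, against 1010, 1045 and 938 at day 10, and ND-PDSW (2L, 3466157 to 3467334) had 655, 635 and 590 at day 40, against 995, 662 and 620 at day 10, both with overlapping ages.

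Complex II, which also works in the citric acid cycle, was the only complex with a nuclear median near 0, at 0.01 on the log2 scale, and the ages overlapped in its 4 subunit rows. SdhA, the flavoprotein that oxidizes succinate, was counted with CG11257 and had 2653, 2277 and 2162 normalized counts at day 40, against 1964, 2317 and 2368 at day 10, and a log2 change of 0.09 ± 0.12 (SE, adjusted p = 0.833 in edgeR). SdhB, the iron-sulfur subunit, was counted with CG15237 and had 1403, 978 and 925 at day 40, against 1293, 1251 and 1117 at day 10, and a log2 change of -0.15 ± 0.15 (SE, adjusted p = 0.735 in edgeR). The membrane anchors are SdhC and SdhD. SdhC (3R, 11208887 to 11209849) had 583, 394 and 424 at day 40, against 336, 447 and 452 at day 10, and a log2 change of 0.17 ± 0.18 (SE, adjusted p = 0.756 in edgeR). SdhD, counted with Hrd3, Rpt5 and PTPMT1, had 1656, 1545 and 1449 at day 40, against 1371, 1755 and 1735 at day 10, and a log2 change of -0.07 ± 0.12 (SE, adjusted p = 0.870 in edgeR). Whether complex II differs from the other complexes was not tested, and its median lay between -0.06 and 0.17 over the alternatives run.

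In complex III all 6 nuclear subunit rows had a log2 change below 0, with a median of -0.27. In 3 of them all day 40 libraries lay below all day 10 libraries, beside 9.92% of all rows tested. UQCR-C1, a core protein (3R, 14890231 to 14892387), had 2369, 2041 and 1891 normalized counts at day 40, against 2448, 2474 and 2490 at day 10, and a log2 change of -0.24 ± 0.11 (SE, adjusted p = 0.364 in edgeR). UQCR-C2, the other core protein, was counted with Syx8 and had 1275, 1138 and 1034 at day 40, against 1490, 1359 and 1447 at day 10, and a log2 change of -0.32 ± 0.11 (SE, adjusted p = 0.206 in edgeR). UQCR-14, counted with CG32576, had 937, 796 and 862 at day 40, against 1471, 1029 and 969 at day 10, and a log2 change of -0.42 ± 0.16 (SE, adjusted p = 0.265 in edgeR). These 3 rows did not overlap between the ages. UQCR-Q (3L, 17474761 to 17476124), the highest of the complex per length, had 1975, 1293 and 1207 at day 40, against 2074, 1497 and 1366 at day 10, and UQCR-11, the hinge protein (3L, 25120709 to 25126171), had 576, 507 and 480 at day 40, against 718, 523 and 420 at day 10. Replicate 1 was the highest library of each age in both rows, the ages overlapped, and without day 10 replicate 1 both log2 changes were above 0. The median of the complex was -0.10 without day 10 replicate 1 and -0.15 in the fit of rows of 1 gene.

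In complex IV the 8 nuclear subunit rows, which surround the mitochondrial core, all had a log2 change below 0, with a median of -0.28, but none separated the ages. COX5A (3R, 11819359 to 11820299) had 2859, 2412 and 2169 normalized counts at day 40, against 4555, 2849 and 2768 at day 10, and a log2 change of -0.45 ± 0.20 (SE, adjusted p = 0.335 in edgeR). COX5B (2L, 6557800 to 6559308) had 1368, 1013 and 1094 at day 40, against 2587, 1410 and 1185 at day 10, and a log2 change of -0.58 ± 0.26 (SE, adjusted p = 0.358 in edgeR). COX7A (3R, 8339944 to 8341043) had 1855, 1587 and 1470 at day 40, against 3101, 1847 and 1569 at day 10, and a log2 change of -0.41 ± 0.23 (SE, adjusted p = 0.478 in edgeR). In these 3 rows day 10 replicate 1 was well above the other 5 libraries. COX8 (3L, 21538859 to 21539447) showed the same order of libraries at day 10, with 603, 519 and 487 at day 40, against 993, 699 and 588 at day 10, and a log2 change of -0.50 ± 0.18 (SE, adjusted p = 0.246 in edgeR). COX7B (3L, 17425477 to 17426282) differed in that day 40 replicate 1 was the highest library, with 3675, 1520 and 1334 at day 40, against 2710, 2228 and 1716 at day 10, and a log2 change of -0.04 ± 0.34 (SE). COX7C, counted with CG12129 and oys, had 4409, 4029 and 4107 at day 40, against 4782, 4509 and 3540 at day 10, and overlapped. The log2 changes of COX7B and COX7C were above 0 without day 10 replicate 1, and that of COX7B also without day 40 replicate 2 or 3. Over the complex, leaving out day 10 replicate 1 gave a median of -0.13, leaving out day 40 replicate 1 gave -0.52, and the fit of rows of 1 gene gave -0.44.

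Complex V had the lowest median, -0.33, with all 11 nuclear subunit rows below 0. In 4 all day 40 libraries lay below all day 10 libraries, beside 9.92% of all rows tested. In edgeR 6 had an unadjusted p under 0.05, to be read beside the 7.3% of all rows tested that were lower at that limit. ATPsynC forms the membrane ring that turns with the flow of protons. Counted with mir-4949, it had 10619, 10258 and 9368 normalized counts at day 40, against 15385, 14025 and 12111 at day 10, and a log2 change of -0.46 ± 0.13 (SE, adjusted p = 0.135 in edgeR). The ages did not overlap, and DESeq2 gave an adjusted p of 0.0223.

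The peripheral stalk, which holds the catalytic head still, gave the other 3 rows that separated the ages on normalized counts. ATPsynD (3R, 19095000 to 19096271) had 1933, 1699 and 1594 normalized counts at day 40, against 3320, 2307 and 2044 at day 10, and a log2 change of -0.56 ± 0.17 (SE, adjusted p = 0.164 in edgeR), with an adjusted p of 0.0578 in DESeq2. ATPsynO, also known as OSCP, was counted with CG14864 and had 1088, 1104 and 999 at day 40, against 1260, 1385 and 1477 at day 10, and a log2 change of -0.38 ± 0.11 (SE, adjusted p = 0.135 in edgeR). ATPsynB (3L, 9729999 to 9731224) had 1017, 1150 and 1099 at day 40, against 1204, 1358 and 1519 at day 10, and a log2 change of -0.33 ± 0.12 (SE, adjusted p = 0.259 in edgeR). For ATPsynD the highest library was day 10 replicate 1, whereas for ATPsynO and ATPsynB it was day 10 replicate 3. ATPsynCF6, coupling factor 6 of the same stalk (3R, 23355220 to 23356064), had 1589, 1103 and 1030 at day 40, against 1751, 1487 and 1134 at day 10, and overlapped.

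The remaining rows of complex V overlapped between the ages. The catalytic subunit ATPsynbeta, counted with CG11076, had 4504, 5760 and 5512 normalized counts at day 40, against 5479, 6847 and 6347 at day 10, and a log2 change of -0.25 ± 0.14 (SE, adjusted p = 0.504 in edgeR). ATPsyndelta, of the central stalk, was counted with CG2962 and had 2179, 1849 and 1731 at day 40, against 3412, 2412 and 2176 at day 10, and a log2 change of -0.48 ± 0.17 (SE, adjusted p = 0.228 in edgeR). ATPsynE, a small membrane subunit (3R, 14326947 to 14327735), had 1467, 1216 and 1080 at day 40, against 2508, 1544 and 1404 at day 10, and a log2 change of -0.54 ± 0.21 (SE, adjusted p = 0.277 in edgeR). The last 2 rows overlapped by 1 day 40 library each. The row of ATPsynF and CG13587 had 3723, 1370 and 1203 at day 40, against 2964, 1893 and 1532 at day 10, and ATPsynG (2L, 10975522 to 10976399) had 1688, 1101 and 1050 at day 40, against 1655, 1370 and 1098 at day 10, with day 40 replicate 1 the highest library in both. The log2 changes of ATPsynF and ATPsynG were above 0 without day 10 replicate 1 or day 40 replicate 3, and that of ATPsynF also without day 40 replicate 2.

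Calls in complex V changed with the libraries and the scaling. With all libraries, ATPsyngamma, the rotor shaft, had 912, 1003 and 889 normalized counts at day 40, against 879, 1296 and 1250 at day 10. Its log2 change was -0.29 ± 0.15 (SE, adjusted p = 0.449 in edgeR), and the ages overlapped. Without day 10 replicate 1, edgeR called ATPsyngamma at -0.45 ± 0.10 (SE, adjusted p = 0.0702), and ATPsynO at -0.43 ± 0.11 (SE, adjusted p = 0.0763), beside 459 of 9779 rows in all. Without day 10 replicate 3, it called ATPsynC at -0.53 ± 0.11 (SE, adjusted p = 0.0662), beside 342 of 9215 rows in all.

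Together, the nuclear genes held a smaller share of all gene counts at day 40, with 0.826, 0.720 and 0.708% at day 40, against 0.908, 0.853 and 0.924 at day 10, and the ages did not overlap. This share includes reads of neighbors in the rows of several genes. With rows of 1 gene alone, day 40 replicate 1 (0.338%) lay above day 10 replicate 2 (0.335%), so the ages overlapped. Complex V held 0.272, 0.246 and 0.239% at day 40, against 0.337, 0.312 and 0.330 at day 10, without overlap, also in rows of 1 gene. Complex I held 0.234, 0.220 and 0.218% at day 40, against 0.238, 0.248 and 0.278 at day 10, with a narrow gap. The 95% Wilson intervals of replicate 1 overlapped there (0.231 to 0.238% at day 40 and 0.235 to 0.241% at day 10). In rows of 1 gene complex I overlapped between the ages, with 0.0984% in day 40 replicate 1 and 0.0960% in day 10 replicate 1. Complex III held 0.0701, 0.0574 and 0.0569% at day 40, against 0.0787, 0.0656 and 0.0759 at day 10, and complex IV held 0.192, 0.148 and 0.147% at day 40, against 0.209, 0.176 and 0.181 at day 10. In both of these, day 40 replicate 1 lay within the day 10 range. Complex II held 0.0577, 0.0484 and 0.0478% at day 40, against 0.0441, 0.0516 and 0.0599 at day 10, with full overlap. The widest 95% Wilson interval of these nuclear shares was ± 0.00621 percentage points, which covers counting error only, and the interval of each share was narrower than its SD at either age.

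The mitochondrial genes held a larger share than the nuclear genes in every library, 2.03, 2.17 and 2.32% at day 40, against 1.14, 2.23 and 1.79 at day 10, and day 10 replicate 2 lay within the day 40 range. The ratio of mitochondrial to nuclear counts was 2.46, 3.01 and 3.28 at day 40 and 1.26, 2.61 and 1.94 at day 10. Day 10 replicate 2 was above day 40 replicate 1, so the ages overlapped. On the log2 scale the ratio averaged 1.53 ± 0.21 at day 40 and 0.89 ± 0.53 at day 10 (SD, n = 3 each), a difference of 0.64, which was 0.36 without day 10 replicate 1. The ratio was not tested.

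**Figure D4:**
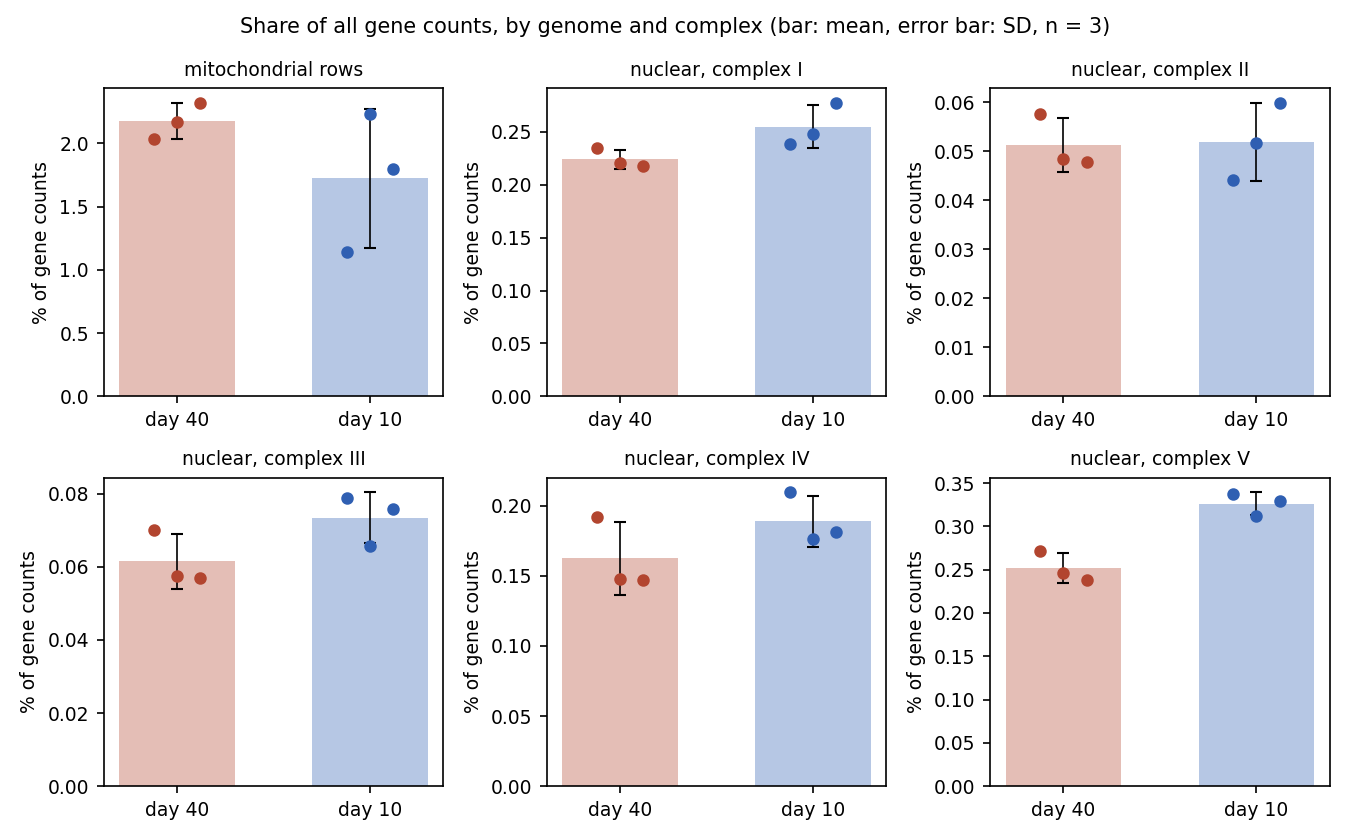
Share of all gene counts (y axes, percent, each from 0) held by the mitochondrial rows and by the nuclear genes of each complex, with day 40 left and day 10 right, points for libraries, bars for means and error bars for the SD (n = 3). Complex V lies at 0.239 to 0.272% at day 40 and 0.312 to 0.337% at day 10. Complex I separates the ages by a narrow gap that is absent in rows of 1 gene, and the other panels overlap.

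Short nuclear subunit genes varied together within an age. Over the 14 rows of 1 gene with under 800 bases of exonic sequence, the median log2 deviation from the mean of the 6 libraries was 0.01, -0.24 and -0.34 at day 40, against 0.48, 0.06 and -0.17 at day 10. Over the 9 rows of 1200 bases or more it was 0.03, -0.05 and -0.14 at day 40, against -0.05, 0.15 and 0.14 at day 10. Day 10 replicate 1 was thus the highest library for the short genes and not for the long ones. Over 860 other rows of 1 gene under 800 bases the deviation was 0.15, 0.05 and 0.00 at day 40, against 0.02, 0.01 and -0.05 at day 10. Day 40 replicate 1 was the highest library there, and these rows were not matched to the subunits by level.

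Across the 32 nuclear subunit rows of 1 gene, which share the 6 libraries, exonic length had a Spearman correlation of 0.24 with the log2 change, of -0.56 with the deviation of day 10 replicate 1 and of 0.66 with that of day 10 replicate 3, as descriptions. With the trend on exonic length taken out of each library, an alternative chosen after seeing the data, no member was called and the median of these rows was -0.26 on the log2 scale, beside -0.23 in the fit of rows of 1 gene that keeps the trend. The part of RNA quality in these deviations was not tested.

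**Figure D5:**
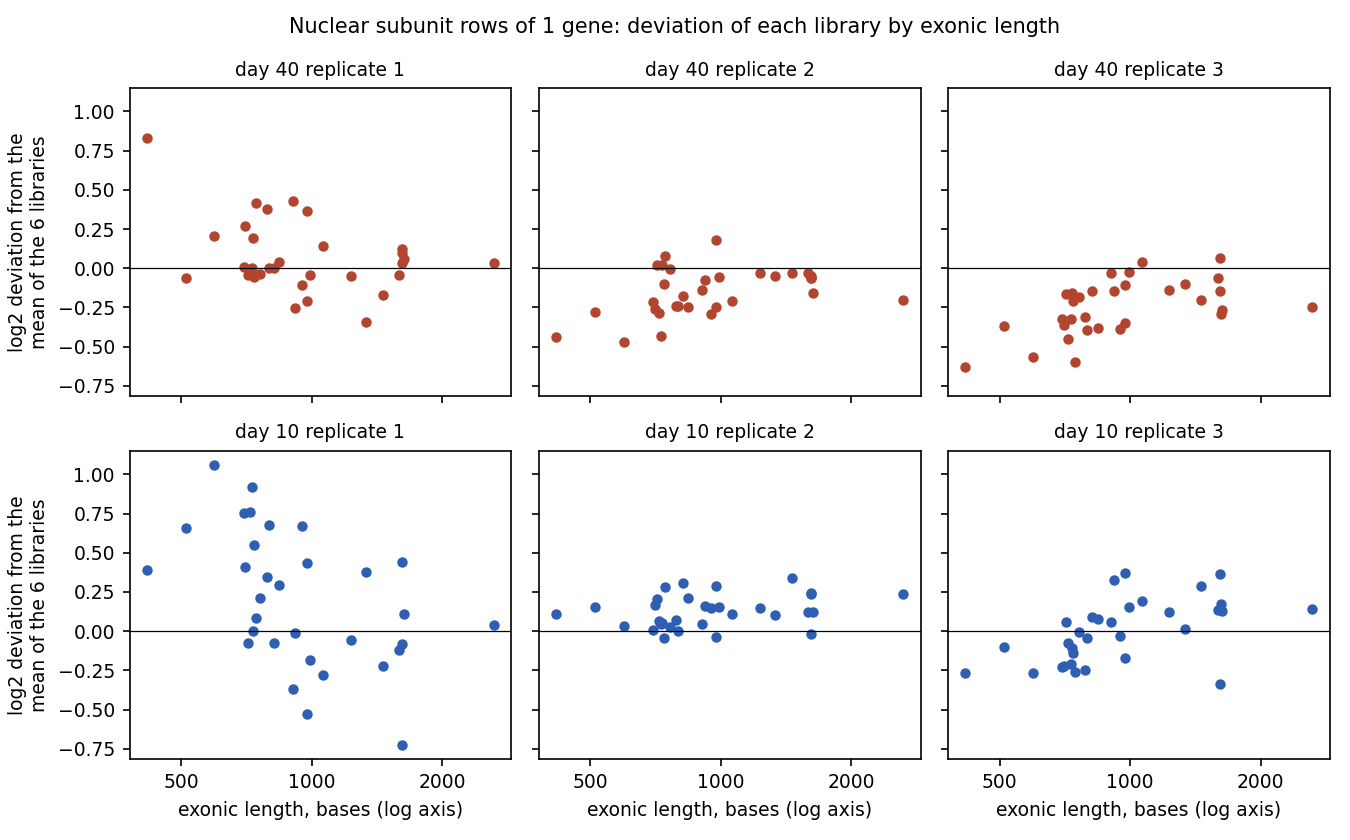
Log2 deviation of a library from the mean of the 6 (y axis) against exonic length in bases (x axis, log axis) for the 32 nuclear subunit rows of 1 gene, 1 panel per library, day 40 in the upper row and day 10 in the lower. Under 800 bases the median is 0.48 in day 10 replicate 1 and -0.34 in day 40 replicate 3.

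The like genes are duplicates of subunit genes, a class known in flies for expression in testis, and they were scarce in these eyes. Of the 24, the 14 that could not be tested had 5 to 61 counts in all 6 libraries together. For 20 of them the original gene is also among the members, and the like gene held between 0.0784% (ND-20L beside ND-20) and 9.78% (UQCR-11L beside UQCR-11) of its counts, with a median of 0.640%. Per length the 21 like genes counted alone lay between 0.0899 and 10.2, with a median of 0.530. The 5 of 7 testis markers that were matched were low too, with sums of 100 to 142 normalized counts at day 40 and 96.7 to 212 at day 10.

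Of the 10 like genes tested, 7 had a log2 change below 0 and 3 above, and none separated the ages. UQCR-11L had 50.7, 57.1 and 54.9 normalized counts at day 40, against 23.8, 61.4 and 48.6 at day 10, with day 10 replicate 1 the lowest library. ND-49L had 21, 17 and 39 counts at day 40, against 15, 24 and 36 at day 10, beside 7471 in total for ND-49, and SdhAL had 12, 18 and 27 counts at day 40, against 31, 21 and 18 at day 10, beside 14257 in total for the row of SdhA. COX7AL2 had 11, 7 and 24 counts at day 40, against 40, 16 and 50 at day 10, the lowest log2 change of all members at -1.22 ± 0.59 (SE, adjusted p = 0.415 in edgeR). ATPsynCF6L and ATPsynepsilonL had 63 and 53 counts in total. COX6AL2, counted with Prp6 and Ir75d, had 129, 126 and 150 at day 40, against 80.6, 133 and 167 at day 10 in normalized counts. Reads from a duplicate and its original can be exchanged where the sequences are alike, so these low values are uncertain.

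The use of exonic parts and junctions within a gene was tested in edgeR against the rest of the gene. Of 242 features in 36 members none was called at an adjusted p under 0.05, beside 0.00339% of 58957 features in all genes. At an unadjusted p under 0.05 there were 5, which is 2.07% of the features of members beside 3.03% of all features. They lay in UQCR-11, SdhC, ATPsynCF6 and UQCR-Q and are named because of their values. The first exonic part of SdhC took up 2.68 ± 0.39% of its gene at day 40 and 5.61 ± 2.07% at day 10 (SD, n = 3 each), on 11 to 12 counts per library at day 40 and 20 to 30 at day 10. Rows of several genes were left out, and the only mitochondrial feature tested was a junction within mt:ND1 that is absent from the annotation (adjusted p = 1 in edgeR).

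Several subunits and carriers of the chain have other symbols and were followed as a list of 9 genes, of which 8 were matched. All 8 had a log2 change below 0, none was called and 5 had all day 40 libraries below all day 10 libraries, beside 9.92% of all rows tested. blw, the alpha subunit of complex V, had 4739, 4720 and 4400 normalized counts at day 40, against 5557, 6181 and 5934 at day 10, and a log2 change of -0.35 ± 0.11 (SE, adjusted p = 0.158 in edgeR). levy, a subunit of complex IV, was counted with Dcp-1 and pita and had 2288, 1962 and 2092 at day 40, against 3833, 2754 and 2625 at day 10, and a log2 change of -0.54 ± 0.15 (SE, adjusted p = 0.125 in edgeR). RFeSP, the Rieske protein of complex III, was counted with CG14352 and had 1483, 1300 and 1257 at day 40, against 1856, 1568 and 1772 at day 10, and a log2 change of -0.37 ± 0.11 (SE, adjusted p = 0.164 in edgeR). All 3 separated the ages.

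The citric acid cycle and pyruvate dehydrogenase feed electrons into the chain. The list held 19 symbols, of which 15 were matched. Of 14 rows tested, 12 had a log2 change below 0 and 2 above, with a median of -0.24. The row of Fum2 is also that of ND-ASHI, a member of complex I, and several other rows hold neighboring genes. Of the 14 rows 1 was called, beside 4.12% of all rows tested. This was kdn, citrate synthase, which was lower at day 40 with 3956, 3701 and 3547 normalized counts at day 40, against 6313, 5000 and 4821 at day 10, and a log2 change of -0.53 ± 0.13 (SE, adjusted p = 0.0813 in edgeR). The ages did not overlap, but the call was lost without day 40 replicate 1, 2 or 3 (adjusted p = 0.222, 0.399 and 0.307 in edgeR) and without day 10 replicate 1 (adjusted p = 0.119), and it was at the limit without day 10 replicate 2. It was also lost in the fit of rows of 1 gene (adjusted p = 0.104) and with the length trend removed (adjusted p = 0.106).

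Carriers move substrates and nucleotides across the inner membrane. The list followed here also holds porin and MCU, which are not such carriers. Of 9 rows tested, 6 lay below 0 and 3 above, with a median of -0.15, and none was called. The row of sesB, Ant2 and CG15211, which holds the ATP/ADP translocases, had 15003, 15002 and 14190 normalized counts at day 40, against 19598, 21009 and 18869 at day 10, and a log2 change of -0.43 ± 0.12 (SE, adjusted p = 0.131 in edgeR). Mpcp2, the phosphate carrier, had 4928, 4971 and 4512 at day 40, against 5728, 8057 and 6684 at day 10, and a log2 change of -0.51 ± 0.14 (SE, adjusted p = 0.115 in edgeR). Neither row overlapped between the ages, and in 2 of the 9 rows tested all day 40 libraries lay below all day 10 libraries, beside 9.92% of all rows tested. The list of assembly and of copper or heme delivery held 28 symbols, some of them spelling variants, and 14 were matched. These 14 rows had a median of 0.02 (6 below 0 and 8 above). Of 22 symbols of mitochondrial gene expression and its regulators 18 were matched, with a median of -0.01 (9 below and 9 above). None was called in either list. TFAM, which packages mitochondrial DNA, had 301, 180 and 201 at day 40, against 223, 189 and 239 at day 10, and PolrMT, the mitochondrial RNA polymerase, had 215, 187 and 220 at day 40, against 227, 273 and 280 at day 10.

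Of the 10 markers of fat body, hemocytes, and pigment and cone cells, 5 were called lower at day 40 in the same libraries. This stands beside 183 of all 9255 rows tested. These lists are put together because they held calls, and the marker lists of photoreceptors, neurons, glia, muscle and testis held none. The 3 fat body markers summed to between 1116 and 2008 normalized counts at day 40 and between 3624 and 5127 at day 10, with Lsp2 and Yp1 called lower and Fbp1 not called (adjusted p = 0.934). The 3 hemocyte markers summed to between 2427 and 2771 at day 40 and between 4086 and 6822 at day 10, with Hml called lower and NimC1 and Pxn not called (adjusted p = 0.963 and 0.557). Hml held most of this sum, the log2 change of NimC1 was 0.08, and Pxn overlapped between the ages. The 4 pigment and cone cell markers summed to between 5806 and 6133 at day 40 and between 6944 and 10486 at day 10, with w and Crys called lower and st and ct not called (adjusted p = 0.569 and 0.457). These 3 sums separated the ages. Because flies of both ages were w, the w row is an uncertain marker of pigment cells here, and the source of its reads was not tested. The calls of Yp1, Hml and Crys were lost with some libraries left out (adjusted p of 0.190, 0.269 and 0.211 for Yp1 without day 40 replicates 1, 2 and 3 and 0.198 without day 10 replicate 3, of 0.133 and 0.119 for Hml without day 40 replicates 1 and 2, and of 0.134 and 0.115 for Crys without day 40 replicates 2 and 3, in edgeR). The 8 muscle markers matched summed to between 7056 and 8546 at day 40 and between 5972 and 10827 at day 10, the 4 neuron markers to between 55355 and 57572 at day 40 and between 43763 and 61224 at day 10, and the 3 glia markers to between 5366 and 5678 at day 40 and between 4958 and 6506 at day 10, with none called. No marker matched was at 0 in all libraries, and the part of these tissues in the values of the members was not tested.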

How the data were processed

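For each library the authors deposited 1 file of raw counts in the layout of JunctionSeq, on build BDGP6, with rows for whole genes, for parts of exons and for junctions, known or new. The submitters' processing notes name Trimmomatic and TopHat. Versions, other settings and whether counting used strand are not given in the sources used here. The deposited table of the authors' own comparison holds fold changes and p-values that were not used, and only feature positions were taken from it.

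Gene counts were tested in edgeR 4.0.16 (R 4.3.3; TMM, filterByExpr, quasi-likelihood, age as the only term) over 9255 rows, with Benjamini-Hochberg adjustment and a limit of 0.1. Usage was tested in edgeR with a term for each library, for features whose normalized counts averaged 5 or more, with a limit of 0.05. Both tests were tested on simulated data. The alternatives were DESeq2 1.42.0, other scalings and count filters, single-gene rows, a replicate block, each library left out, and removal of the trend on exonic length.

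The members and lists were chosen with earlier results of these data known. The rule for named genes took the mitochondrial rows, the complex I core, the Sdh subunits, pairs of a gene and its like gene, and per complex the 3 highest nuclear levels per length and the 2 highest and 2 lowest log2 changes. ND-B16.6, ND-SGDH, COX8, ATPsynB, ATPsynC, ATPsynO, ATPsynbeta, ATPsyndelta, ATPsyngamma and the genes named from related lists were chosen after their values were seen. The values of the row of Sdhaf3 are not reported here. Sequences were not used here.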

Additional observations from a re-analysis of the deposited data

Results flagged for a closer look

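A junction absent from the annotation, within mt:ND1, had 197 counts in day 40 replicate 3 and 0 in the other 5 libraries, those of day 10 included. It was picked out because it lies outside the gene counts on which the comparison of levels rests. It spans 351 bases (mitochondrion, 11995 to 12345, build BDGP6) and equals 1.19% of the counts of mt:ND1 in that library. A single library carries it, the usage test gave an adjusted p of 1 (unadjusted p = 0.120 in edgeR), and its source was not tested.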

How the results depend on the processing

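The number of members called lower at day 40, 0 as reported, was 2 with library totals only, 3 with the replicate block, 2 with DESeq2 and 0 to 2 with each library left out in turn. The number called higher, also 0 as reported, was 1 with DESeq2 and 0 to 3 with each library left out. Under the other settings run, both stayed at 0. The deviations of same-numbered libraries from their age means had correlations of 0.02, -0.02 and 0.15. For libraries of different numbers they lay between -0.17 and 0.14. With 3 libraries per age, these values cannot show whether the numbers pair the samples. The replicate block called ATPsynD, ATPsynE and ATPsyndelta (adjusted p = 0.0583, 0.0766 and 0.0801 in edgeR) and 464 rows in all, beside 381 without it. With library totals only, ATPsynC and ATPsynD were called (adjusted p = 0.0536 and 0.0978 in edgeR), beside 336 of 9255 rows in all. Over all rows, edgeR called 116 to 146 with a day 40 library left out and 342 to 459 with a day 10 library left out. The other 202 values under alternatives of the medians, shares, ratio and counts of calls stayed within the spread between libraries or within 1.5 times the count. For the members that the rule for named genes took, 674 values kept their direction and side of the limit, 8 newly passed it and 27 changed sign, the last in rows that were never called, and the cause was not tested. Among the members named outside that rule, ATPsynC newly passed under 3 settings and ATPsyndelta, ATPsyngamma and ATPsynO under 1 each, and the log2 change of ND-SGDH ranged from -0.026 to 0.26 over the alternatives. Over the libraries left out, the log2 change ranged from -0.71 to 0.29 for ATPsynF, -0.34 to 0.049 for ATPsynG, -0.15 to 0.35 for COX6AL2, -0.62 to 0.22 for COX7B, -0.14 to 0.055 for COX7C, -0.16 to 0.085 for ND-24, -0.37 to 0.038 for ND-30, -0.037 to 0.12 for ND-B17.2, -0.47 to 0.42 for SdhAL, -0.004 to 0.28 for SdhC, -0.17 to 0.003 for SdhD, -0.24 to 0.14 for UQCR-11, -0.018 to 0.53 for UQCR-11L, -0.38 to 0.055 for UQCR-Q, -0.10 to 0.13 for mt:CoII, -0.073 to 0.76 for mt:ND3 and -0.60 to 1.72 for mt:ND6. With the length trend removed, that of ND-B17.2 was -0.021. Per-length levels of rows of several genes could not be had, and values of mt:ND6 and the like genes are limited by counts.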

Other observations

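Within the row of mt:ND2, nearly all counts lay in its first exonic part, with counts of 660, 608 and 2418 in the day 40 libraries, against 24, 1262 and 16 in the day 10 libraries. The 19 rows of mitochondrial tRNA genes counted alone were at 0 counts in all 6 libraries.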
